A study of Mus musculus with 6 samples.

Results

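The cytosolic ribosomal protein genes were taken as the protein-coding genes whose symbol is Rpl or Rps followed by a number, with an optional letter ending, together with Rplp0, Rplp1 and Rplp2. The kinases named Rps6k were left out, and an average of 1 TPM or more was required. TPM is a level per transcript length, scaled to a fixed total per library. Of 24520 genes in the table, 81 had a matching symbol and 79 of these were protein-coding. Rpl3l, Rpl10l and Rpl39l lay under 1 TPM, which left 76 members, 46 of the large subunit and 30 of the small subunit. The rule itself uses no difference between ages, although earlier results of these data were known when it was set.

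RNA was measured in endothelial cells, the lining of the blood vessels, sorted by flow cytometry from lungs of wild-type mice. Of the 6 libraries, 3 are labelled Aged and were made at 18 months of age, and 3 are labelled mAdu and were made at 8 months. All 6 were made from 10 ng of total RNA with the SMARTer Ultra Low kit. The sort markers are not given in the sources, and no group carries a transgene or treatment in its labels. Whether libraries of 1 age stem from separate mice is not in the labels, so every p-value refers to the spread among libraries, some of which may be technical.

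Each ribosome is built from ribosomal RNA and 1 copy of most ribosomal proteins, divided over a small subunit, which reads the mRNA, and a large subunit, which joins the amino acids. Cells keep the output of these genes in close proportion, and free ribosomal proteins are degraded. Their mRNAs begin with a cytosine and a tract of C and T bases, the 5' terminal oligopyrimidine (TOP) tract, through which the growth kinase complex mTORC1 controls their translation, and loss of 1 copy of several of them, RPS19 first among these, causes Diamond-Blackfan anaemia in people.

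The longest C and T runs near the annotated start are shown for the 10 members whose libraries did not overlap between ages because the text gives their values. Promoter windows from 250 bases before to 50 after the annotated start came from RefSeq (GRCm38.p6), in which 56 of the 76 members matched. Each line gives 30 bases in the direction of transcription, and capitals mark the longest run of C and T that begins between 30 bases before and 50 bases after that start.
Rps19: cgcccgggaaaccccgtcgTTCCCTTTCCC
Rpl4: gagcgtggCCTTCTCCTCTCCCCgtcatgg
Rps2: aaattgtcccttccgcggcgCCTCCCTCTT
Rps28: tctgtcccgaggaTTCCTgggtaccgcgtg
Rpl13: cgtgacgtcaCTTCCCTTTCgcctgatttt
Rpl15: gagaaagCCTTCTTCCTTTCCTCTggcggc
Rps10: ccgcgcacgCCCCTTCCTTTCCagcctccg
Rps6: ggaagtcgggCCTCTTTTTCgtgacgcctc
Rpl27a: gtgagCTCCTCCCTTTTCCCTTTCTgccac
Rplp0: aggaccgcctggTTCTCCTataaaaggcac
The stretch of Rps19 lies at chr7:24884612-24884641 on the plus strand, and its run is 11 bases long. The runs of Rps19 and Rps2 reach the end of the window and may go on beyond it. Relative to the annotated start, they begin at 40 and 41. Those of Rpl4, Rplp0, Rpl13 and Rps28 begin at 27, 12, -16 and -21. Nearest to that start begin those of Rpl15 and Rpl27a at -4, Rps10 at -3 and Rps6 at -1. Whether a marked run is the TOP tract of its mRNA was not tested. The other plus-strand stretches are those of Rpl4 at chr9:64173405-64173434, Rps2 at chr17:24720083-24720112, Rpl13 at chr8:123102324-123102353, Rpl27a at chr7:109519186-109519215 and Rplp0 at chr5:115559466-115559495. On the minus strand lie those of Rps28 at chr17:33824567-33824596, Rpl15 at chr14:18270968-18270997, Rps10 at chr17:27635227-27635256 and Rps6 at chr4:86857349-86857378. The longest run shown, 20 bases, is that of Rpl27a, and the shortest, 5 bases, that of Rps28. A run of at least 8 bases was found in 46 of the 56 members with a window (82.1%) and in 32.3% of all 27025 genes with one. The motif CCGGAAG, which ETS family factors bind, was found on either strand of the 300-base window in 23 of the 56 members (41.1%) and in 9.9% of all genes. AAGATGG, a motif of YY1, was found likewise in 9 members (16.1%) and in 7.3% of all genes. These matches describe the letters in the window and were not tested as sites.

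Depth is unknown for TPM, and the libraries carried the endothelial label in their markers along with RNA of other lung cells. Pecam1 lay between 1286 and 1442 TPM in all 6. Of 10 endothelial markers 9 were lower at 18 months, beside 66.2% of all tested genes, with summed levels of 12353 to 13165 TPM against 13351 to 14713 TPM. Summed macrophage and monocyte markers were 944.7 to 1739 TPM across the 18-month and 639.5 to 1800 TPM across the 8-month libraries. All 10 tested were higher at 18 months, while 66.2% of all tested genes were lower. Of the 10, 2 lay wholly above the 8-month libraries, beside 4.48% of all tested genes. Of those not tested, Ccr2 was lower at 18 months, at 0.725 against 1.22 TPM, and Csf1r was higher. Csf1r lay between 0 and 0.745 TPM and Cd68 between 11.0 and 35.6 TPM. Lymphocyte markers summed to 32.5 to 37.7 TPM and 27.9 to 80.0 TPM, with Cd3e near 0 but Cd3d between 5.17 and 11.4 TPM. Epithelial markers summed to 9489 to 19277 TPM and 10994 to 20164 TPM, with Sftpc between 3945 and 11881 TPM. Erythroid and platelet markers summed to 341.1 to 732.6 TPM and 340.9 to 1889.9 TPM, and fibroblast and mural markers to 14.2 to 18.2 TPM and 27.8 to 41.6 TPM. All 8 tested erythroid and platelet markers were lower at 18 months, 0 of them without overlap. All 7 tested fibroblast and mural markers were lower too, 5 of them without overlap, beside 14.2% of all tested genes. The third 8-month library had the highest sums of the lymphocyte, macrophage, epithelial and erythroid lists, and its Rps19, at 259.3 TPM, lay between those of the other 8-month libraries. That is a description of 1 library, and the part of these cells in the ribosomal protein levels was not tested.

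The 76 members were among the more abundant mRNAs of these cells. Their mean level over the 6 libraries ran from 22.2 to 2133 TPM with a median of 471.0 TPM, and 72 members lay over 100 TPM and 9 over 1000 TPM. The median level was 508.3 TPM for members of the large subunit and 423.0 TPM for those of the small subunit. The highest was Rps27, a zinc finger protein of the small subunit, followed by Rpl41, the shortest ribosomal protein, at 2125 TPM, Rps14 at 1593 TPM, Rpl32 at 1470.4 TPM and Rpl35 at 1331 TPM. The lowest were Rps15a at 22.2 TPM, Rpl15 at 47.6 TPM, Rps20 at 57.3 TPM, Rpl22 at 57.7 TPM and Rps6 at 122.7 TPM, although each ribosome holds 1 copy of each of these proteins. Many members have processed pseudogenes. Where its transcript set, which is not given, holds them, kallisto shares out reads among them. The share of a member's 31-base words that also occur in transcripts of any other GENCODE gene had a median of 46.0% and reached 99.0% for Rpl35. Counted over genes with a row in the table alone, it was 66.4% for Rpl35. That share fell from 94.05% to 0% for Rpl36 and stayed at 54.3% for Rpl14. Levels of single members are thus uncertain to an extent that was not tested.

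**Figure D1:**
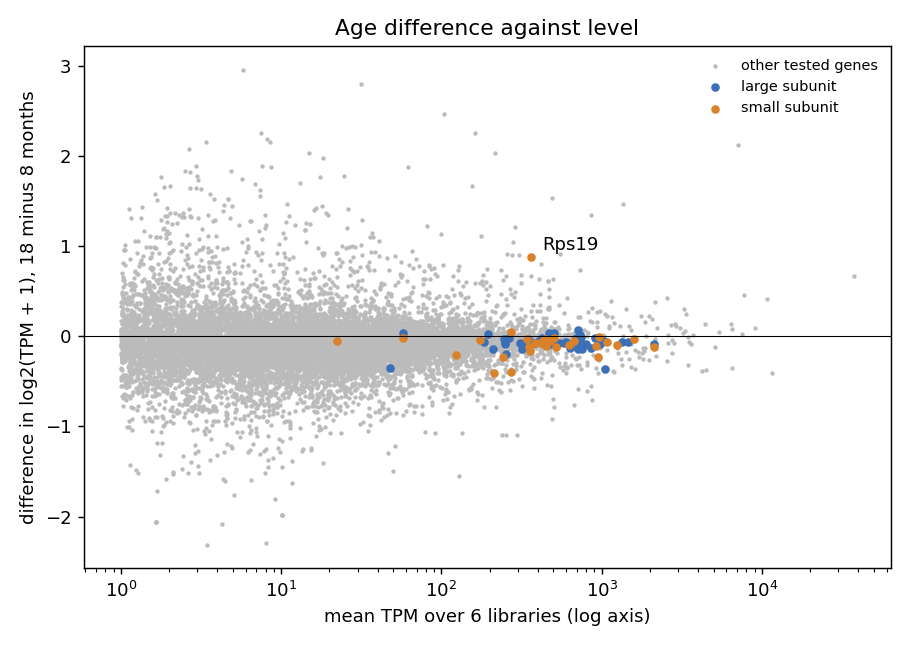
Mean level of each member over the 6 libraries in TPM (log axis) against its log2 difference of 18 from 8 months, large and small subunit marked. Most members lie close to 0 over the levels from 22.2 to 2133 TPM. Rps19 lies near 0.88, and Rps2, Rps28, Rpl13 and Rpl15 lie between -0.40 and -0.35.

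Between 18 and 8 months, no ribosomal protein gene passed the adjusted threshold of 0.05 (limma's moderated test on log2(TPM + 1), adjusted over the 12748 tested genes), as against 3 of all tested genes (0.0235%). At an unadjusted p under 0.05, 1 member was higher at 18 months, Rps19, beside 3.45% of all tested genes. By the same measure 6 members were lower, Rps2, Rps28, Rpl13, Rpl15, Rps10 and Rpl27a, beside 9.99% of all tested genes. The 18-month libraries lay wholly above the 8-month libraries in 2 members, Rps19 and Rpl4, beside 4.48% of tested genes. They lay wholly below in 8 members, namely the 6 just named with Rps6 and Rplp0, beside 14.2% of tested genes. Each of these shares of the 76 members was under that of all tested genes. In bulk RNA of a sorted population, fewer cells of a type and less RNA per cell cannot be told apart.

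The differences of the members were small and close to one another. Their median was -0.073 on the log2 scale, beside -0.079 over all tested genes, and 71 of the 76 lay within 0.25 of 0. A difference below 0, lower at 18 months, was found in 68 members, while 66.2% of all tested genes lay below 0. That count depended on the scaling of the libraries: it was 23 of 76 under median-of-ratios scaling, 55 after quantile normalization and 48 after correcting for transcript length and GC content, with 49.0%, 50.7% and 50.6% of all genes below 0. No direction for the family as a whole can therefore be read from these libraries. The size also hung on single libraries, with a median of -0.029 without the first 18-month library, -0.030 without the first 8-month library, -0.12 without the second 18-month library and -0.12 without the third 8-month library. The spread within an age was also small, with a median residual SD of 0.103 (log2) for the members and 0.151 for the 5420 tested genes that averaged 20 TPM or more.

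**Figure D2:**
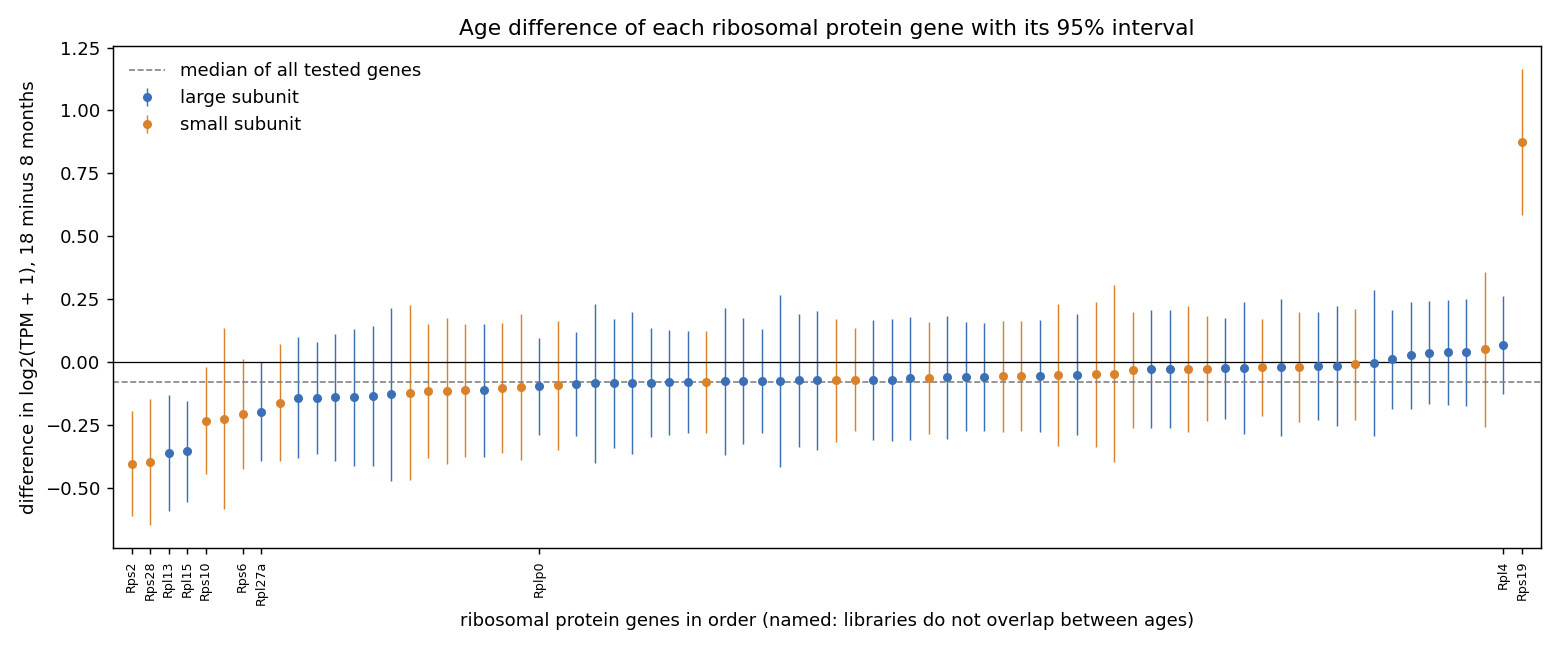
Log2 difference of 18 from 8 months on the log2(TPM + 1) scale, with 95% intervals, for all 76 members in order, large and small subunit marked and the 10 members without overlap named. Rps19 lies at 0.88 and the next member, Rpl4, at 0.069, while the lower end is formed by Rps2, Rps28, Rpl13 and Rpl15 between -0.40 and -0.35.

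The medians of the large and the small subunit were almost the same as deposited. The median was -0.073 over the 46 large-subunit members, of which 40 were below 0, and -0.072 over the 30 small-subunit members, of which 28 were below 0. For the large and the small subunit in turn, the medians were 0.021 and 0.022 under median-of-ratios scaling, -0.030 and -0.047 after quantile normalization, -0.0095 and -0.045 after the GC and length correction, and -0.069 and -0.094 with library weights. Whether the subunits differ was not tested. Summed over members, the ratio of large to small subunit was 1.60, 1.57 and 1.62 in the 18-month libraries and 1.59, 1.57 and 1.64 in the 8-month libraries. The 2 sets of ratios overlapped throughout, at 1.60 ± 0.0212 (SD, n = 3) and 1.60 ± 0.0342 (SD, n = 3).

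The members moved together from library to library by as much as they differed between ages. Their summed share of the table was 4.61%, 5.27% and 4.87% at 18 months and 5.43%, 5.31% and 4.81% at 8 months, or 4.92 ± 0.331% and 5.18 ± 0.327% (SD, n = 3). The ages overlapped in this share. The first 18-month and the third 8-month library were the lowest of their ages. Without Rps19, the median deviation of a member from its own mean over the 6 libraries was -0.11, 0.068 and -0.059 (log2) at 18 months and 0.11, 0.062 and -0.061 at 8 months. In the first and the third 18-month library 70 and 65 of these 75 members lay below their own mean, and in the second 12 did. At 8 months the counts were 6, 10 and 64, so that 1 of the younger libraries was like most of the older in this respect.

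The shifts were also set against the length of the members' transcripts. Across the 76 members, the deviation of the first 18-month library from the others of its age had a Spearman correlation of 0.55 with median transcript length, and that of the third 8-month library one of 0.55 as well. For the other libraries it was -0.47 and -0.29 (the second and the third of 18 months) and -0.37 and -0.36 (the first and the second of 8 months), and the 3 deviations within an age depend on one another. The correlation of the age difference itself was 0.12 with length, -0.24 with GC content, -0.24 with the share of 31-base words found elsewhere and -0.0086 with level. These are correlations across genes of the same libraries, which are not independent replicates. The part of transcript length in the age difference was not tested beyond the correction given above.

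**Figure D3:**
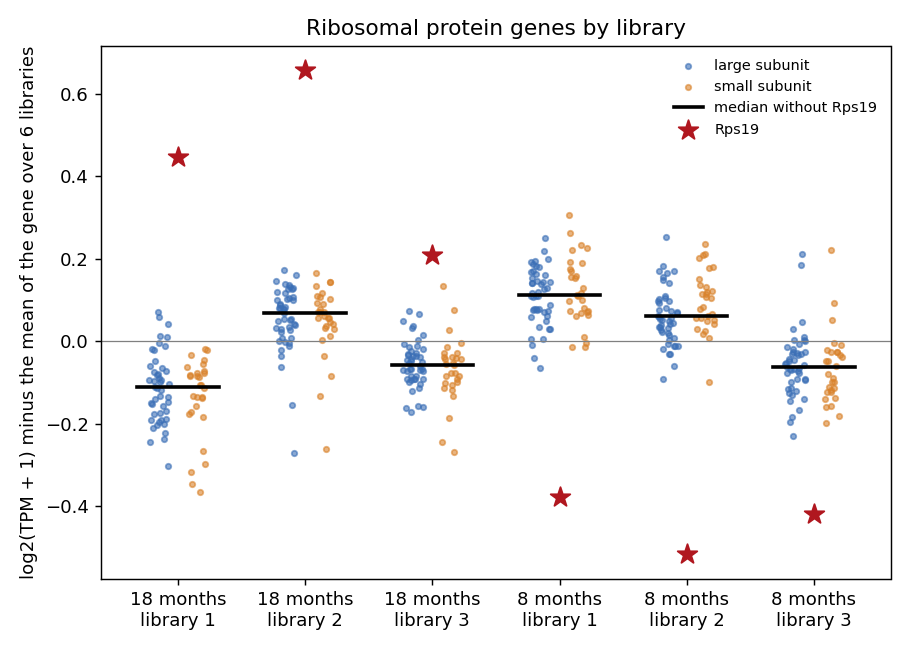
Deviation of each member from its own mean over the 6 libraries (log2, TPM + 1), by library, with the median of each library and Rps19 marked. The bulk of members moved up or down as 1 body, while Rps19 lay above its mean in all 3 libraries of 18 months and below it in all 3 of 8 months.

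Rps19 stood apart from the other members. It encodes a protein of the head of the small subunit that is needed for the maturation of the small subunit's RNA, and it lies at chr7:24884371-24889806 on the plus strand (ENSMUSG00000040952, GENCODE M21, 10 transcripts). Its level was 473.3, 548.0 and 401.3 TPM across the 18-month and 266.9, 242.2 and 259.3 TPM across the 8-month libraries. Every 18-month library lay above every 8-month library, and the lowest of the older libraries was well above the highest of the younger. The means were 474.2 ± 73.3 and 256.2 ± 12.6 TPM (SD, n = 3), 1.85-fold higher at 18 months. The log2 difference was 0.88 with a standard error of 0.13 and a 95% interval of 0.59 to 1.17, and its p in limma's test was 0.00013, the 19th smallest of 12748.

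Adjusted over all genes, that p became 0.079, so the difference of Rps19 did not pass the threshold. Over 20 alternatives the adjusted p in limma's test ran from 0.035 to 0.20 and the log2 difference from 0.73 to 0.998. It passed under 2 of these alternatives, with an adjusted p of 0.047 when libraries were weighted by their estimated variance, where 94 genes passed in all, and of 0.035 among protein-coding genes alone, where 28 passed. Leaving out each library in turn gave 0.77 to 0.99 with adjusted p of 0.103 to 0.19. Rps19 had been singled out with earlier results of these data known, so its values are a description.

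Set against the other members of the same library, Rps19 showed the same pattern. These ratios restate its own difference, since most other members differed little between ages. Its level divided by the median of the small-subunit members was 1.17, 1.19 and 0.968 at 18 months and 0.593, 0.543 and 0.640 at 8 months. At 18 months it was near a typical small-subunit member, and at 8 months well under one, with means of 1.11 ± 0.123 and 0.592 ± 0.0483 (SD, n = 3). It made up 3.05%, 3.06% and 2.47% of the small-subunit sum at 18 months and 1.45%, 1.35% and 1.63% at 8 months. By level it ranked 34, 32 and 45 among the 76 members in the older libraries and 63, 67 and 59 in the younger. Its log2 difference lay 0.81 above that of Rpl4, the next member in order.

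Pooled over its protein-coding transcripts, 369 of the 2038 words of Rps19 were shared with other genes. That share, 18.1%, was lower than for most members and ranked 68 of 76. The median length of its transcripts was 618.5 bases, so the share within a single transcript may be larger, which was not tested. The largest sharing was with the pseudogene Rps19-ps6, at 15.7% of its words, which has no row in the table. Rps19-ps3, the one Rps19 pseudogene among the partners that the table holds, shared 7.02% and lay at 7.65, 7.37 and 9.63 TPM across the 18-month and 7.55, 7.08 and 8.95 TPM across the 8-month libraries, with overlapping ages. How kallisto divided reads between Rps19 and its pseudogenes was not tested. Rps19bp1, whose protein binds RPS19, lay at 15.3 ± 0.314 and 16.1 ± 2.31 TPM (SD, n = 3).

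**Figure D4:**
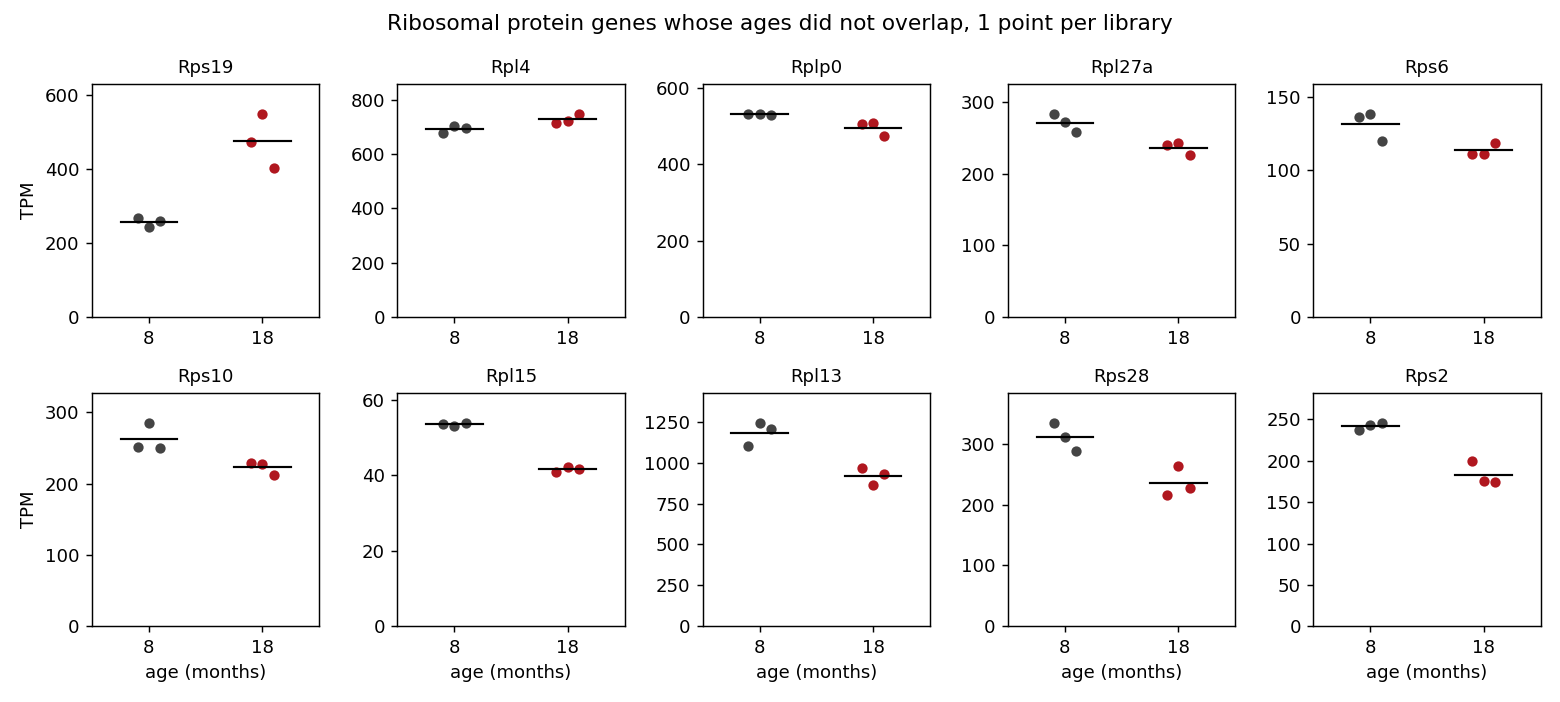
TPM in each library, 18 and 8 months, for the 10 members whose libraries did not overlap between ages, with the mean of each age as a bar. Rps19 and Rpl4 were higher at 18 months and the other 8 lower. The gap between ages was wide for Rps19, Rpl13, Rps2 and Rpl15 and narrow for Rps6, Rpl4 and Rplp0.

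Among the members that were lower at 18 months, Rps2 had the most negative log2 difference. It encodes a protein at the mRNA entry side of the small subunit, and its level was 199.4, 175.5 and 174.7 TPM across the 18-month and 237.7, 243.3 and 245.5 TPM across the 8-month libraries. The ages did not overlap, and the log2 difference was -0.40 (SE 0.090, adjusted p = 0.155 in limma's test). That was the smallest adjusted p of any member other than Rps19, and the difference was -0.26 after the GC and length correction. Rps28, a small protein near the mRNA exit, lay at 216.6, 263.5 and 227.8 TPM against 334.0, 310.7 and 288.0 TPM, likewise without overlap, with a log2 difference of -0.40 (adjusted p = 0.195, limma).

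In the large subunit, Rpl13 and Rpl15 showed the most negative differences. Rpl13 lay at 966.3, 864.3 and 932.5 TPM across the 18-month and 1100, 1242 and 1207 TPM across the 8-month libraries (log2 difference -0.36, adjusted p = 0.195, limma). Rpl15, one of the lowest members by level, lay at 40.8, 42.3 and 41.8 TPM against 53.6, 53.0 and 53.8 TPM (log2 difference -0.35, adjusted p = 0.181, limma). Its libraries were very close within each age, with an SD of 0.729 TPM across the 18-month and 0.406 TPM across the 8-month libraries.

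The other 4 members that were lower without overlap differed by less. Rps10, at the head of the small subunit, lay at 229.1, 227.9 and 212.3 TPM against 252.1, 285.0 and 250.7 TPM (log2 difference -0.23, adjusted p = 0.336 in limma's test). Its difference was -0.078 after the GC and length correction and -0.14 under median-of-ratios scaling. Rps6, the member that S6 kinase phosphorylates downstream of mTORC1, lay at 111.2, 111.5 and 118.7 TPM against 136.6, 138.4 and 120.0 TPM (log2 difference -0.21, and -0.11 under median-of-ratios scaling). Its highest older and lowest younger library were nearly equal. Rpl27a lay at 236.2 ± 8.57 and 271.0 ± 12.3 TPM (SD, n = 3; log2 difference -0.20). Rplp0, the stalk base and a common reference gene in quantitative PCR, lay at 505.9, 509.2 and 474.3 TPM against 530.8, 531.7 and 529.7 TPM (log2 difference -0.097, and 0.081 after the GC and length correction). Rpl4, at the exit tunnel, was the one member besides Rps19 that was higher without overlap, at 715.2, 721.2 and 747.1 TPM against 678.9, 704.9 and 697.5 TPM (log2 difference 0.069, adjusted p = 0.785, limma).

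Members that work together in the ribosome gave no group that stood out. In the stalk, which recruits the GTPase translation factors, Rplp0 lay at -0.097, Rplp1 at -0.076, Rplp2 at -0.023 and Rpl12 at 0.026 on the log2 scale. Among these, Rplp2, Rplp1 and Rpl12 overlapped between ages. Rpl5 and Rpl11, which bind the 5S RNA and, when free, the p53 regulator Mdm2, lay at -0.024 and -0.14, both with overlap. The 8 members of the exit tunnel had a median of -0.041, with 7 below 0. In the head of the small subunit, 13 members other than Rps19 were all below 0 as deposited, with a median of -0.071, and the other 16 small-subunit members had a median of -0.076. Of 19 members whose human counterparts are linked to Diamond-Blackfan anaemia, 18 lay below 0 as deposited, with a median of -0.079, and the exception was Rps19. These counts share the dependence on scaling given for the whole family.

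Of the variant copies that the naming rule covers, which replace a parent protein in some tissues, Rpl3l, Rpl10l and Rpl39l lay under 1 TPM and Rps27l did not. Rps27l, which is also a p53 target, lay at 245.1, 295.0 and 283.5 TPM across the 18-month and 313.6, 250.8 and 234.1 TPM across the 8-month libraries. Its parent Rps27 lay at 1930.4, 2210.1 and 1995 TPM against 2421, 2313 and 1926 TPM. Both overlapped between ages, with log2 differences of 0.051 and -0.11. The parents of the copies below 1 TPM were abundant, with Rpl3 at a log2 difference of 0.011, Rpl10 at -0.029 and Rpl39 at -0.070. Rps4l, which GENCODE lists as a pseudogene and which is thus no member, lay at 112.8 ± 15.3 and 126.4 ± 3.69 TPM (SD, n = 3), and its parent Rps4x had a log2 difference of -0.055.

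The 7 listed ribosomal components whose symbols fall outside the naming rule were close to the members. Their median log2 difference was -0.046, and 6 were below 0 as deposited. Rpsa, the laminin receptor protein of the small subunit, lay at 277.2 ± 13.4 and 295.8 ± 1.64 TPM (SD, n = 3). Rps3a1 lay at 726.6 ± 28.7 and 782.9 ± 26.4 TPM (SD, n = 3), and neither passed the adjusted threshold. These 2 of the 7 lay wholly lower at 18 months, beside 14.2% of all tested genes. Their nearest libraries of the 2 ages were close, at 289.7 and 294.7 TPM for Rpsa and 750.3 and 753.6 TPM for Rps3a1. Under median-of-ratios scaling the log2 differences of Rpsa and Rps3a1, -0.095 and -0.11, became -0.00080 and -0.014. Rack1, a scaffold on the small subunit, lay at 314.8 and 331.6 TPM. Fau, whose protein is made as a fusion with a ubiquitin-like protein, lay at 716.7 and 736.9 TPM. Rpl36al, Rpl22l1 and Rpl7l1 lay at 196.6 and 196.0, 101.1 and 104.5, and 109.1 and 110.9 TPM.

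**Figure D5:**
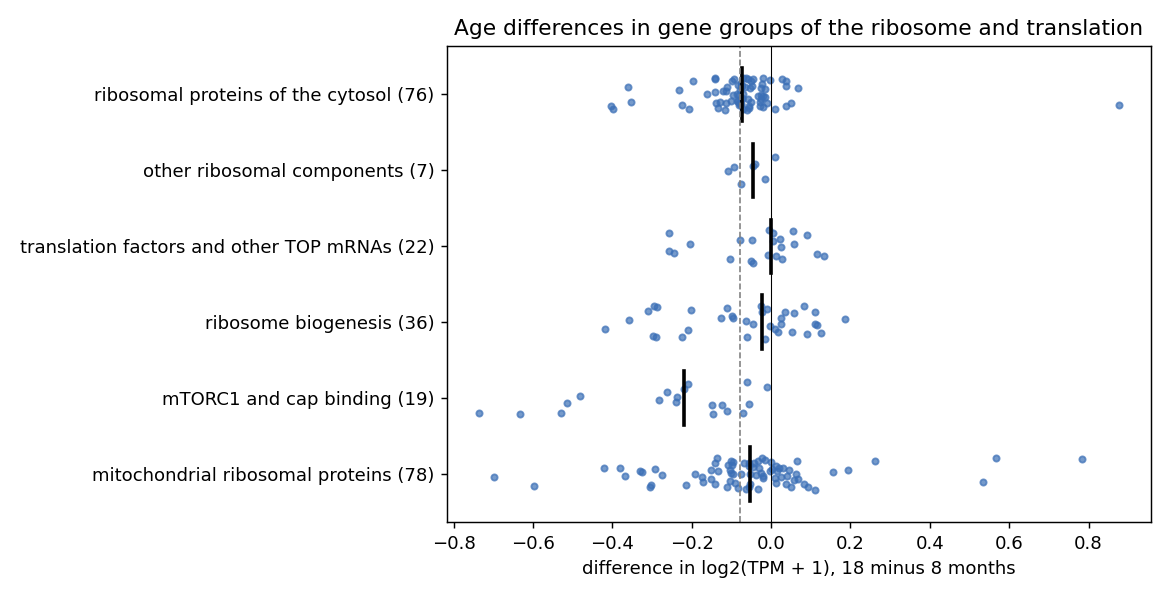
Log2 difference of 18 from 8 months for each tested gene of the ribosomal protein family and of related lists, with the median of each as a bar. The ribosomal proteins of the cytosol form a narrow cloud around their median of -0.073 with Rps19 far above it, and the mTORC1 and cap-binding genes have a median of -0.22.

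Genes that act with ribosomal proteins were read from lists in the same way, and none of their genes passed the adjusted threshold. Of 22 translation factors and other genes with TOP mRNAs, 11 were below 0 and the median log2 difference was -0.0013, with 5 below 0 and a median of 0.092 under median-of-ratios scaling. Eif3g and Eif3h, subunits of the initiation factor that binds the small subunit, lay at 161.1 ± 1.22 and 193.1 ± 13.7 TPM and at 275.5 ± 5.01 and 317.7 ± 2.19 TPM (SD, n = 3), each lower at 18 months without overlap. They were the 2 of the 22 that were so, beside 14.2% of all tested genes. Their log2 differences, -0.26 and -0.21, were -0.16 and -0.11 under median-of-ratios scaling, and that of Eif3g was -0.099 after the GC and length correction. Vim, whose mRNA is a TOP mRNA encoding the intermediate filament vimentin, lay at 889.1 and 1054.7 TPM with overlap. Of 36 genes of ribosome biogenesis, 22 were below 0 and the median was -0.024. That sign was not stable, with medians of 0.063 under median-of-ratios scaling, 0.069 after quantile normalization, -0.14 without the first 18-month library, -0.13 without the third 8-month library, 0.015 without the second 18-month library and 0.0045 without the second 8-month library. Among them, Pno1, needed for the last cut of the small subunit's RNA, lay at 16.9 ± 2.02 and 22.8 ± 1.21 TPM, and Eif6, which keeps the subunits apart, at 56.7 ± 6.51 and 69.4 ± 4.18 TPM (SD, n = 3). Polr1d, a subunit of RNA polymerases I and III, lay at 84.2 and 97.5 TPM.

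The mTORC1 and cap-binding genes were the one related list in which all tested genes, 19 of 19, were below 0 as deposited, beside 66.2% of all tested genes, with a median of -0.22. Without the second 18-month library 15 were below 0 with a median of -0.13, and without the second 8-month library 16 with a median of -0.12. The count was 16 under median-of-ratios scaling, 17 after quantile normalization and 14 after the GC and length correction, with medians of -0.14, -0.12 and -0.14. Eif4ebp1, the cap-binding inhibitor that mTORC1 phosphorylates, lay at 36.5, 29.0 and 26.6 TPM across the 18-month and 52.2, 43.5 and 38.4 TPM across the 8-month libraries (log2 difference -0.53, adjusted p = 0.215 in limma's test). Eif4g1, the scaffold of the cap-binding complex, lay at 23.7 ± 4.79 and 33.9 ± 3.27 TPM, and Akt1s1, an inhibitory subunit of mTORC1, at 6.06 ± 0.830 and 8.99 ± 2.22 TPM (SD, n = 3). All 3, named for the smallest unadjusted p of the list, were lower at 18 months without overlap as deposited. Of the 19 tested genes 4 were so, beside 14.2% of all tested genes. The highest older and the lowest younger library of Akt1s1 were close, at 6.62 and 6.76 TPM. The log2 difference of Akt1s1, -0.48, became -0.0083 after the GC and length correction.

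Ribosomal proteins of the mitochondrion, encoded by a separate set of nuclear genes, spread more widely than those of the cytosol, at lower levels. Of 78 tested, 52 were below 0 with a median of -0.053, 2 were higher and 7 lower at an unadjusted p under 0.05, shares near or under the 66.2%, 3.45% and 9.99% of all tested genes. With median-of-ratios scaling 31 were below 0 and the median was 0.039. Their median residual SD was 0.145 (log2), beside the 0.103 of the cytosolic members. Their median level was 46.1 TPM, beside 471.0 TPM for the cytosolic members, and the part of level in this spread was not tested. Mrps21 lay at 104.7 ± 11.6 and 62.0 ± 18.3 TPM, Mrpl42 at 61.0 ± 4.36 and 41.4 ± 8.91 TPM, and Mrps26 at 14.3 ± 1.91 and 24.5 ± 7.98 TPM (SD, n = 3).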

How the data were processed

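RNA was sequenced as 100 bp paired reads on the HiSeq platform, per the labels' protocols. The authors deposited TPM for 24520 Ensembl genes in 6 libraries. kallisto and the build mm10 are named in the submitters' processing notes, and the transcript set, the summing to genes and any use of strand are not given in the sources. The deposited TPM summed to between 869315 and 876126 per library and hold no read depth.

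Symbols and positions came from GENCODE M21 (24299 genes found, 221 not). The 12748 genes averaging 1 TPM or more were tested as log2(TPM + 1), which understates changes of low genes, with limma 3.58.1 in R 4.3.3: a 2-sided moderated test of age alone with an intensity trend, Benjamini-Hochberg adjustment over all tested genes, a threshold of 0.05 and 95% intervals. The procedure was tested on simulated data with independent noise in each gene, unlike these libraries, in which the members moved together. Shared sequence was counted as 31-base words of GENCODE transcripts, pooled over the protein-coding transcripts of each member. Members with several promoter windows were counted once.

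The members and the lists were chosen with earlier results of these data known, and Diamond-Blackfan, ribosome part and marker lists rest on general knowledge. Named members are Rps19, those with the most extreme differences among members without overlap (up to 6 each way), the 5 highest and 5 lowest by level, the stalk, the 5S particle, and variant copies with their parents. Of other lists, up to 3 genes with the smallest unadjusted p are named, and all ribosomal components listed outside the symbols. Single values of some genes are not reported here. Rplp0 falls under the stalk. Rpl27a, Rps19bp1, Rps19-ps3, Rps19-ps6, Arhgef1, Cd79a and Dmrtc2 fall outside this rule and were chosen after values were seen.

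Alternatives were pseudocounts of 0.1 and 0.5, no filter, a minimum mean of 5 TPM, quantile normalization, median-of-ratios scaling, equal sums with and without the members, no trend, library weights, a loess correction for GC content and transcript length, protein-coding genes alone, the replicate number as a block, and each library left out.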

Additional observations from a re-analysis of the deposited data

How the results depend on the processing

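The depth of these libraries is unknown, and each age has 3 of them. In addition, kallisto divides reads among near-identical copies in its transcript set, which limits the precision of single members. Of the alternatives, 833 values of named genes other than Rps19 kept their direction and their side of the threshold. For the family results and Rps19 together, 118 values kept their side of the threshold, moved by less than the within-age spread or, for counts, by less than 1.5 times. Among these 118, the median over all members became 0.021 with median-of-ratios scaling, a change of sign. One member, Rps19, passed with library weights (1 member called, log2 difference 0.73, adjusted p 0.047 in limma) and among protein-coding genes alone (1 member called, 0.88, adjusted p 0.035), and the cause was not tested. With median-of-ratios scaling 23 members lay below 0, with medians of 0.021 and 0.022 for the large and small subunit. Leaving out 1 library at a time called 0 members each time, put 53 to 71 members below 0, and gave medians of -0.12 to -0.029 over all members, -0.12 to -0.018 over the large and -0.13 to -0.035 over the small subunit, and 0.77 to 0.99 for Rps19.

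Same-numbered libraries of the ages deviated with correlations of -0.012, -0.09 and 0.057. These show no pairing by number, but with 3 libraries per age they cannot settle whether the libraries were paired. With the replicate block 0 members were called and Rps19 lay at 0.88 with an adjusted p of 0.182 in limma.

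Log2 differences of 67 settings of named genes near 0 changed sign. With the GC and length correction, and with the replicate block added to it, these were 0.11 for Fau, 0.10 for Rpl35, 0.036 for Rpl7l1, 0.081 for Rplp0, 0.053 for Rplp1, 0.015 for Rplp2 and 0.065 for Rps14. With library weights they were -0.046 for Rpl12, -0.017 for Rpl3, -0.024 for Rpl36al and 0.013 for Rplp2. Median-of-ratios scaling gave 0.048 for Fau, 0.0186 for Rack1, 0.065 for Rpl10, 0.053 for Rpl22l1, 0.034 for Rpl32, 0.029 for Rpl35, 0.024 for Rpl39, 0.0091 for Rpl41, 0.069 for Rpl5, 0.078 for Rpl7l1, 0.0185 for Rplp1, 0.071 for Rplp2, 0.068 for Rps14, 0.0396 for Rps15a, 0.072 for Rps20 and 0.039 for Rps4x. Quantile normalization gave 0.0102 for Fau, 0.028 for Rpl10, 0.032 for Rpl22l1, 0.015 for Rpl32, 0.027 for Rpl5, 0.0459 for Rpl7l1, 0.0462 for Rplp2, 0.042 for Rps14, 0.051 for Rps15a and 0.061 for Rps20. Leaving out 1 library at a time gave ranges of -0.13 to 0.049 for Fau, -0.082 to 0.045 for Rpl10, -0.017 to 0.085 for Rpl12, -0.13 to 0.057 for Rpl22l1, -0.015 to 0.032 for Rpl3, -0.13 to 0.0036 for Rpl32, -0.10 to 0.0063 for Rpl35, -0.10 to 0.098 for Rpl36al, -0.16 to 0.015 for Rpl41, -0.077 to 0.0069 for Rpl5, -0.12 to 0.059 for Rpl7l1, -0.092 to 0.069 for Rplp2, -0.092 to 0.0196 for Rps14, -0.075 to 0.0087 for Rps20 and -0.035 to 0.17 for Rps27l. The cause of these sign changes was not tested.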

Other observations

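Next to Rps19 on chromosome 7, Arhgef1, whose gene begins 13.1 kb beyond the end of Rps19, differed the other way. Its older libraries lay at 24.9, 15.4 and 18.8 TPM and its younger at 31.6, 41.0 and 33.4 TPM, with no overlap (log2 difference -0.83, adjusted p = 0.155 in limma's test). Cd79a, a B cell receptor gene that lies between them, was at 2.66, 3.45 and 4.50 TPM against 4.63, 4.17 and 11.4 TPM, with overlap. Dmrtc2, on the other side of Rps19, was listed at 0 in all 6 libraries. These neighbours were chosen after their values were seen.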
